A study of Caenorhabditis elegans with 2 samples.

Results

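Autosomal core promoter peaks of the nuclear hormone receptor NHR-80 are described here, in Caenorhabditis elegans. A peak was taken when its summit lay within 150 bp of the annotated 5' end of a protein-coding gene, on either side, and when no other protein-coding gene had a promoter window over it. A promoter window ran from 1000 bp upstream to 200 bp downstream of the 5' end, which is called the start below. The rule used positions and the annotation, and no signal values. It found 775 of the 7038 peaks that passed the authors' reproducibility threshold, which is 14.4% of the 5388 on autosomes. These 775 peaks belonged to 760 genes, of which 15 had a pair of summits.

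The study was a chromatin immunoprecipitation followed by sequencing (ChIP-seq) in whole hermaphrodite young adults, taken 64 hours after synchronisation as starved L1 larvae. There was 1 group, strain OP460 (unc-119(tm4063) III; wgIs460), with 2 biological replicates. Both replicates carried the same insertion, NHR-80 with a GFP-FLAG tag at its C terminus, and the same unc-119 allele. The description of each sample names GFP as the target of the antibody, while a further field names nhr-80. Whole animals mix all tissues, so a site used in few cells and a site used weakly in many cannot be told apart, and tagged protein from a transgene need not match the level of the native one. The p-values below compare sequence windows and do not measure the spread between animals.

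Nuclear hormone receptors are transcription factors that bind DNA through zinc fingers and can answer to lipids and other small molecules. NHR-80 belongs to a group related to mammalian HNF4 that is greatly enlarged in nematodes, and it is known as a regulator of fatty acid desaturases and of the long life of worms without a germ line. The core promoter is the stretch around the start where the transcription machinery assembles. In C. elegans many messenger RNAs receive a spliced leader in place of their own first bases, so an annotated start is often a splice site, which follows the bases AG, and not the first base transcribed.

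Sequences of 2 sets of members show what the summits held. The first set has the 8 strongest named members whose summit lay between genes, at least 20 bp upstream of the start, on the chromosomes shown, and they show how varied the strongest summits were. Each is read 5′ to 3′ on the gene's strand, from 50 bp before the summit to 50 bp after it, from the RefSeq sequence of build ce11 (WBcel235). Capitals mark TGATAA on either strand (TTATCA when read on the other one) and TATAAA on the gene's strand. They lie at chrIII:7758723-7758823 (plus strand) for pcp-1, chrIII:4193703-4193803 (plus strand) for xbp-1, chrII:8625288-8625388 (plus strand) for sptf-2, chrIII:6159254-6159354 (plus strand) for nfm-1, chrV:6614497-6614597 (plus strand) for cpr-4, chrV:9546981-9547081 (plus strand) for his-37, chrV:6276256-6276356 (plus strand) for F31F7.1 and chrV:6524875-6524975 (plus strand) for acs-1.
pcp-1: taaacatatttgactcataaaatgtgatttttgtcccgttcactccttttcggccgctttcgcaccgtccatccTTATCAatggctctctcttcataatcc
xbp-1: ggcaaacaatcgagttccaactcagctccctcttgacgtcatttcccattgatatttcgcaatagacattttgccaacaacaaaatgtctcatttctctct
sptf-2: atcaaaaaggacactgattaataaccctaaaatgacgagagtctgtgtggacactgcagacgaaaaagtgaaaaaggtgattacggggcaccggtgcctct
nfm-1: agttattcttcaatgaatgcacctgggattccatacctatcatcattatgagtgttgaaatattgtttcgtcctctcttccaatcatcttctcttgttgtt
cpr-4: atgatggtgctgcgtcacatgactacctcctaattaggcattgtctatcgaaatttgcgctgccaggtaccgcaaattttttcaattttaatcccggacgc
his-37: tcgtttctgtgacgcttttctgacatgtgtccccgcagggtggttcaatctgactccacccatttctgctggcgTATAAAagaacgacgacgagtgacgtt
F31F7.1: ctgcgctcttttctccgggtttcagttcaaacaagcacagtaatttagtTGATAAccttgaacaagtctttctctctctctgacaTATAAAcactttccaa
acs-1: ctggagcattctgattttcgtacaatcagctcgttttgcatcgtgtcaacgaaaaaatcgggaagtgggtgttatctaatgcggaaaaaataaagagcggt

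Of these 8, pcp-1 and F31F7.1 each held 1 copy of TGATAA and the others none, while his-37 and F31F7.1 each held 1 TATAAA. The TATAAA of his-37 began 50 bp before its start, and that of F31F7.1 98 bp before. The second set was chosen after the values were seen, to show members of the gene lists with 2 copies of TGATAA within 50 bp of the summit. It holds nhx-2 at chrII:7694029-7694129 (minus strand), lipl-5 at chrV:385649-385745 (plus strand), fbxa-74 at chrIII:1698987-1699068 (minus strand) and lipl-2 at chrV:9791468-9791566 (plus strand). The last 3 stop at the base before the start, so that the second copy of lipl-2 runs past the end of the stretch shown and is not marked.
nhx-2: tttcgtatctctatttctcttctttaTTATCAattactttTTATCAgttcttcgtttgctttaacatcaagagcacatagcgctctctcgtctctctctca
lipl-5: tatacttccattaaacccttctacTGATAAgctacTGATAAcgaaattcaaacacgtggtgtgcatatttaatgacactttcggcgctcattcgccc
fbxa-74: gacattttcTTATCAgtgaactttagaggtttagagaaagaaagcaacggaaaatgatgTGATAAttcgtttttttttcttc
lipl-2: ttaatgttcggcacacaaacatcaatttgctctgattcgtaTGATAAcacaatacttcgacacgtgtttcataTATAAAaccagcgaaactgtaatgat

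Within the 150 bp limit, summits lay mostly upstream of the start. Of the 775, 592 were upstream (76.4%, 95% Wilson interval 73.3 to 79.2), 7 were on the first base and 176 were downstream (22.7%). The quartiles of the distance were 103, 55 and 3 bp upstream, values that the limit of 150 bp bounds. The replicates' own lists gave a like picture. Among the 7038 strongest peaks of each, the same rule took 777 peaks in replicate 1 and 764 in replicate 2, with 75.0% and 75.7% upstream, a mean of 75.3% ± 0.44 (SD, n = 2). Their median distances were 54 and 58 bp upstream. Per 50 bp, the thresholded list held 182 to 206 summits in each of the 3 bins upstream of the start, 86 in the first bin downstream, and 47 and 48 in the next 2.

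**Figure D1:**
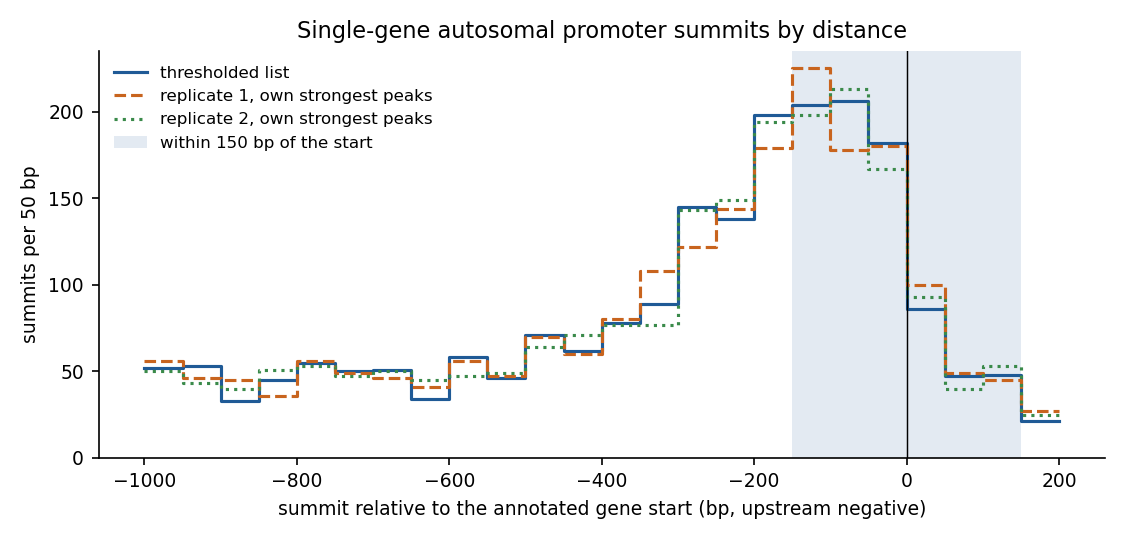
Number of summits per 50 bp (y axis) by distance from the annotated gene start (x axis, bp) for autosomal peaks in the promoter of 1 protein-coding gene, in the thresholded list and in each replicate's own 7038 strongest peaks; the shaded band is the range within 150 bp. All 3 lines are highest between 200 bp upstream and the start and drop past it, from 182 to 86 summits in the thresholded list.

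The limit of 150 bp cut through a continuous distribution, since the bin from 200 to 151 bp upstream held 198 summits. Exactly 5 members lay at the limit. Just inside it were F42G4.5 and F54D5.3, both with a summit 150 bp upstream and with signal values of 525 and 255. Just outside, at 151 bp, were Y48G8AL.13 (603) and ampd-1 (185), an AMP deaminase gene.

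The annotation puts 536 of the 775 summits between genes (69.2%) and 130 in the 5' UTR of the gene itself (16.8%). Coding exons of the gene held 28, its introns and other exons 25, other protein-coding genes 44, and noncoding genes or pseudogenes 12. A tRNA gene lay within 200 bp of 5 members (0.645%), against 24 of 1258 autosomal single-gene peaks farther upstream in promoters (1.91%), which are called far-upstream peaks below. Members lay on chromosomes I (101), II (145), III (107), IV (151) and V (271). As a share of each chromosome's protein-coding genes, 3.41% (2.80 to 4.13) had one on chromosome I and 5.33% (4.74 to 5.98) on chromosome V.

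Within the 150 bp limit, position differed with the kind of start. The bases AG directly preceded the start in 161 of the 760 genes (21.2%), against 27.7% of all 17242 autosomal protein-coding genes. For the 163 peaks of such genes the median summit lay 106 bp upstream (109.5 and 100 bp in the replicates' own lists), and 91.4% were upstream. For the other 612 the median was 42 bp upstream (40 and 41 bp in the replicates), and 72.4% were upstream. The farther quartile of the AG group, 131 bp upstream, lay close to the limit. Summits beyond the limit were left out, so these distances and the share of AG starts depend on it. Starts that coincide with an ATG, where no 5' UTR is annotated, made up 8.95% of genes with a member and 24.7% of all autosomal genes.

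Signal values come from the authors' peak caller, on its own scale, and are compared only within a list. Members ran from 93.2 to 1055, with quartiles of 130, 192 and 299. Far-upstream peaks ran from 93.0 to 1580, with quartiles of 135, 188 and 297. The ratio of the medians was 1.02, and 0.989 and 1.02 in the replicates' own lists (1.01 ± 0.0237, SD, n = 2), so no difference beyond the spread between replicates was seen. The strongest members were weaker than the strongest far-upstream peak, and the strongest member ranked 25 among all thresholded peaks.

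Of the members, 695 (89.7%) overlapped one of the 7038 strongest peaks of both replicates by at least 1 bp, against 89.9% of all thresholded peaks and 88.6% of far-upstream peaks. The thresholded list was made from these replicates, so this overlap is a description and no independent check. Among the 771 members with a peak in both full lists, the nearest summits of the replicates were a median of 21 bp apart, and 59.0% were within 25 bp. Spearman's rho of the replicate signal values was 0.88 across these peaks, which share libraries and are not independent samples. Of the 760 genes, 603 (79.3%) were core promoter genes in both replicates' own lists.

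The strongest members were at genes of many kinds. The summit at pcp-1, a serine carboxypeptidase gene, was strongest: its signal value was 1055 in the pooled replicates, 550 in replicate 1 and 507 in replicate 2, with the summit 130 bp upstream (121 and 155 in the replicates). At xbp-1, the bZIP factor of the endoplasmic reticulum unfolded protein response, the values were 1014 pooled, 567 and 450, with the summit 56 bp upstream. At sptf-2, an SP-family zinc finger gene, they were 958, 526 and 431, at 121 bp. All 3 genes lie on chromosomes II and III and had their summit between genes.

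Next came nfm-1, the worm's merlin gene, with 896 pooled, 456 in replicate 1 and 437 in replicate 2. The cytochrome c oxidase subunit gene cox-5B had 891, 454 and 434, with the summit 14 bp upstream in all 3 lists. The cathepsin B-like protease gene cpr-4 had 874, 493 and 383. The histone gene his-37 had 865, 480 and 389, but histone genes come in near-identical copies, so reads there may be split among them. The RNA-binding protein gene etr-1 had 858, 435 and 420, with its summit 28 bp downstream, in the 5' UTR. The ranks of these genes were alike in both replicates: etr-1, the farthest apart of the 5, ranked 109 and 64.

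Further down the 25 strongest were acs-1, an acyl-CoA synthetase gene (731 pooled, 401 and 332 in the replicates), and nhr-8, a nuclear hormone receptor gene (718, 380 and 337, summit 36 bp downstream in the 5' UTR). The mitochondrial stress factor gene atfs-1 had 662, 356 and 305, with its summit 94 bp upstream. The protease gene cpr-3 had 685, 375 and 316. The G protein alpha subunit gene gsa-1 had 649, 368 and 280, and the kinase gene cdk-7 had 601, 331 and 272. Of the 25, 19 had the summit upstream, 17 had it between genes and 8 held TGATAA within 50 bp. In the replicates' own lists, nfm-1 was no core promoter gene in replicate 1, where its summit lay 151 bp upstream. The main summits of pcp-1 and F31F7.1 also left the limit in replicate 2, at 155 and 166 bp upstream, and these genes kept a weaker summit there, 75 bp downstream (50.7) and 36 bp downstream (128). The other 22 were core promoter genes by their matched summit in both lists. The value of replicate 1 was the higher one in 24 of the 25, with pho-9 the exception; scales differ between lists.

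**Figure D2:**
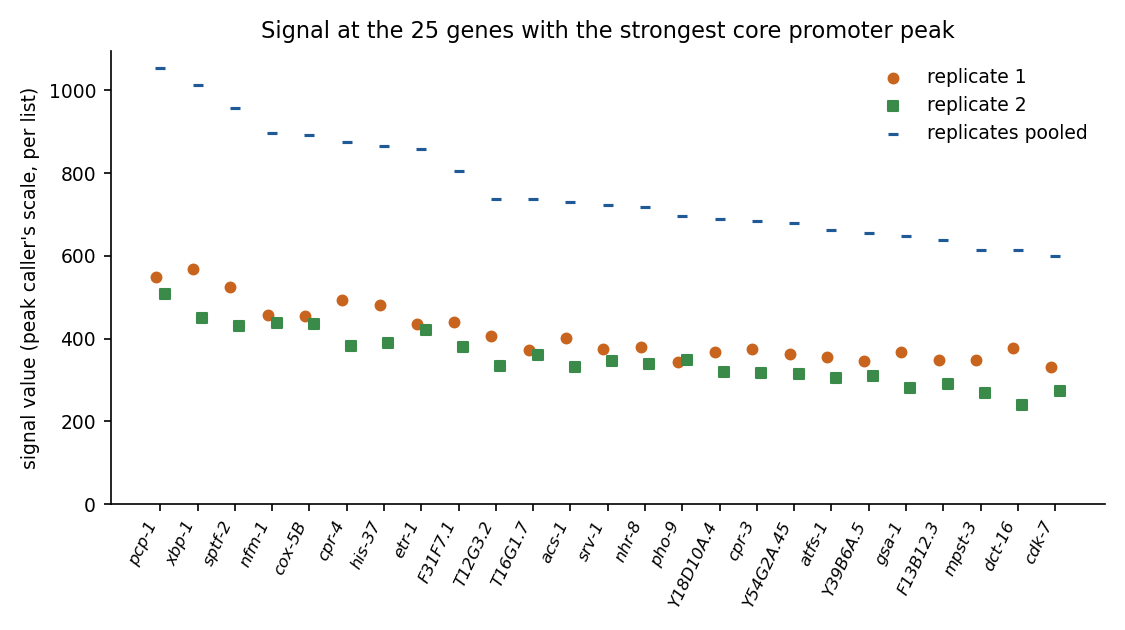
Signal value (y axis, the peak caller's scale in each list) at the 25 genes with the strongest core promoter peak (x axis), in replicate 1, replicate 2 and both pooled. Pooled values run from 1055 at pcp-1 to 601 at cdk-7, and the replicates lie at 331 to 567 and 239 to 507.

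The 15 genes with a pair of member summits included the yolk protein gene vit-6, with summits 149 bp upstream (365) and 54 bp downstream (168) inside one interval of 6268 bp. In xbp-1 the summit 56 bp upstream (1014) was joined by one 150 bp downstream (181), and in cpr-4 the one at 127 bp upstream (874) by one 79 bp downstream (154). A far-upstream peak was also present for 62 of the 760 genes (8.16%).

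Sequence was compared over all 2080 6-mers, strands merged. At the summits (50 bp to each side), 197 6-mers (9.47% of those tested) were in more windows than in the flanks from 200 to 250 bp on both sides of the same peaks, and 132 (6.35%) were in fewer, at an adjusted p under 0.05 in a two-sided exact McNemar test with Benjamini-Hochberg adjustment. Overlapping 6-mers share bases, so these counts are not of separate motifs. The strongest was TGATAA, the core of the site that GATA factors of the worm's intestine bind: it was in 375 of 775 summit windows (48.4%, 44.9 to 51.9) and 76 flanks (9.81%), with an adjusted p of 2.02e-56 (exact McNemar test). The next 4 were CTTATC (37.0% against 4.52%), CTGATA (28.9% against 5.55%), ACTGAT (24.0% against 5.55%) and ATAAGA (28.6% against 7.23%), which overlap it.

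A purine repeat stood out beside it. GAGAGA was in 18.7% of summits and 5.42% of flanks (adjusted p = 2.58e-14, exact McNemar test). CACGTG, the E-box that many bHLH factors bind, was in 5.42% against 1.94% (adjusted p = 0.00362, exact McNemar test), and TGACGT, part of the site of CREB-like bZIP factors, in 5.81% against 2.19% (adjusted p = 0.00488, exact McNemar test). The TGACGT call was lost on the list of replicate 2 alone (adjusted p = 0.0567, exact McNemar test), and both calls were lost with windows of 25 bp (adjusted p = 0.0647 for CACGTG and 0.132 for TGACGT, exact McNemar test). TGATAA passed in every alternative run, with differences from 28.4 to 45.7 percentage points. Over all autosomal genes, GAGAGA on the strand opposite the gene had 32.1 per 1000 genes from 75 to 51 bp before the start. It had 6.26 from 125 to 149 bp past the start. Comparison with flanks therefore cannot separate a GAGAGA trait of the peaks from their position.

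Words from the sites of nuclear hormone receptors showed no difference that passed. AGGTCA, a repeat unit in the sites of many receptors, was in 2.58% of summits and 3.74% of flanks (adjusted p = 0.492, exact McNemar test). AAGTCC, part of an HNF4-type site, was in 1.42% against 2.45% (adjusted p = 0.419, exact McNemar test). GTAAAC (4.77% against 3.61%), TGACTC (4.90% against 3.48%) and CCGCCC (3.23% against 1.29%) also did not pass. CCGCCC passed in 4 alternatives: the list of replicate 2 alone (adjusted p = 0.00971), a limit of 200 bp (0.00701), windows of 100 bp (0.0157) and as many pooled peaks as the ce10 list (0.00315, exact McNemar test). TATAAA was in 13.0% of summits and 14.1% of flanks (adjusted p = 0.833, exact McNemar test). At this number of peaks small differences were not detectable, and no match says only that these letters are not in the window.

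AT-rich words and the splice acceptor word were less frequent at summits. AAAATT was in 21.4% of summits and 46.7% of flanks (adjusted p = 1.23e-22, exact McNemar test), and TTTTTT in 28.4% against 41.0% (adjusted p = 2.91e-06, exact McNemar test). TTTCAG, the 3' splice site consensus of the worm, was in 10.5% against 21.2% (adjusted p = 4.08e-07, exact McNemar test). The TTTCAG call was lost among members above the median signal (adjusted p = 0.172, exact McNemar test). Flanks reach into exons and introns on the gene side of the start.

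**Figure D3:**
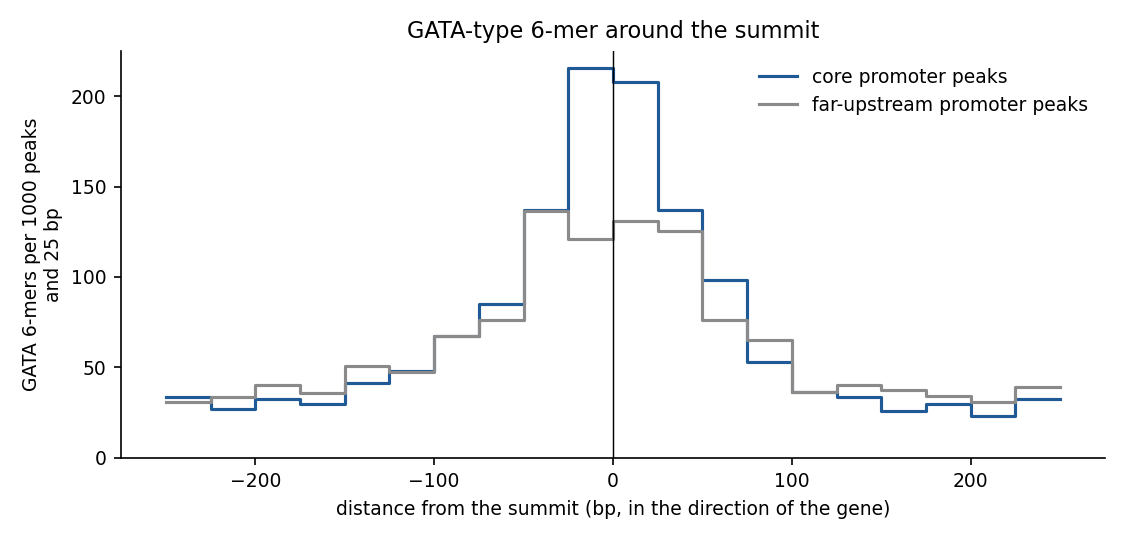
Occurrences of the GATA-type 6-mer on either strand per 1000 peaks and 25 bp (y axis) by distance from the summit in the direction of the gene (x axis, bp), for 775 core promoter and 1258 far-upstream peaks. Core promoter peaks reach 215 and 208 in the 2 bins next to the summit, far-upstream peaks 121 and 131, and both fall to 23.2 to 50.9 beyond 100 bp.

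Core promoter peaks were then compared with far-upstream peaks, which the rule separates by distance alone. A two-sided Fisher's exact test with adjustment over all 6-mers called 5 6-mers (0.24% of those tested) as more frequent at core promoter summits and 4 (0.192%) as less frequent. TGATAA was in 48.4% of core and 36.6% of far-upstream windows (adjusted p = 0.000306, Fisher's exact test), and this difference passed under every alternative run, with 9.16 to 15.4 percentage points and adjusted p from 1.28e-05 to 0.00623. It was 12.2 points on the list of replicate 1 and 13.0 on that of replicate 2. Windows with 2 or more copies numbered 132 of 775 core (14.5 to 19.8%) and 144 of 1258 far-upstream windows (9.80 to 13.3%). The nearest copy within 50 bp was centred a median of 15.5 bp from the summit in core and 18.5 bp in far-upstream peaks.

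The other 4 more frequent in core promoters were CTTATC (26.2% far upstream), CTGATA (19.4%) and ACTGAT (16.9%), which overlap TGATAA, and TATAAA, the TATA box that binds the general transcription machinery. TATAAA was in 13.0% of core and 6.84% of far-upstream windows (adjusted p = 0.00208, Fisher's exact test). Far-upstream windows all end before the stretch from 50 to 26 bp upstream of the start, which core windows can cover. Over all autosomal genes, TATAAA on the gene's strand is most frequent there, with 66.3 per 1000 genes against 23.7 from 125 to 101 bp. The test therefore cannot separate a trait of the peaks from their position. On the list of replicate 1 alone the TATAAA call was lost (4.73 percentage points, adjusted p = 0.132, Fisher's exact test), with shares of 12.2% and 7.49%, while on that of replicate 2 it stood at 12.8% and 7.04%. It was also lost with windows of 25 bp (adjusted p = 0.582), among members above the median signal (0.0897) and with a limit of 200 bp (adjusted p = 0.174, Fisher's exact test). Among members above the median signal the calls of CTTATC (adjusted p = 0.0615), CTGATA (0.0897) and ACTGAT (0.0897) were lost too in Fisher's exact test. That of ACTGAT was also lost with 1 summit per interval (0.0975) and with windows of 25 bp (0.331) and 100 bp (0.0666, Fisher's exact test). The 4 less frequent ones were GC-rich: CGCGCC (1.81% against 5.80%), GCGAGA (3.61% against 8.43%), CGCCGC and GCCGCA. All 4 were lost on the list of replicate 1 alone (adjusted p = 0.135, 0.451, 0.118 and 0.161 in that order, Fisher's exact test), and GCCGCA also on that of replicate 2 (0.0678). The 9 calls were 5 on the list of replicate 1 and 15 on that of replicate 2.

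TGATAA differed in share by position of the summit, though no test was made between positions. It was in 43.6% of windows with the summit 150 to 101 bp upstream (37.0 to 50.5, n = 204), 105 of 206 at 100 to 51 bp (44.2 to 57.7%) and 58.8% at 50 to 1 bp upstream (51.5 to 65.7, n = 182). From the start to 50 bp downstream it was in 48.8% (38.6 to 59.2, n = 86), and from 51 to 150 bp downstream in 33.0% (24.4 to 42.8, n = 97), an interval that holds the far-upstream share. Intervals of neighbouring positions overlap. Over all autosomal genes TGATAA had 17.2 per 1000 on the gene's strand and 22.3 on the other from 50 to 26 bp before the start. From 25 to 49 bp past it these were 9.51 and 16.4.

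**Figure D4:**
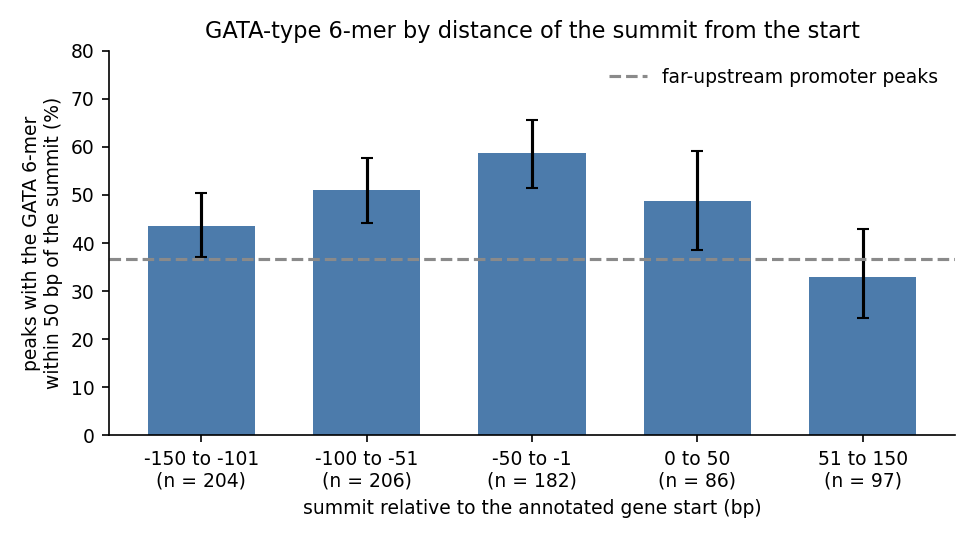
Share of core promoter peaks with the GATA-type 6-mer within 50 bp of the summit (y axis, %) by position of the summit relative to the start (x axis, bp); bars start at 0 and whiskers are 95% Wilson intervals, which cover counting error only. The share is highest at 58.8% in the 50 bp upstream of the start and lowest at 33.0% beyond 50 bp downstream, and the dashed line marks 36.6% in far-upstream peaks.

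Members with TGATAA had a higher median signal value than those without, as a description across peaks. The median signal value was 211 in the 375 members with it and 168 in the 400 without. By the value of the nearest replicate summit, these medians were 113 and 93.2 in replicate 1 and 98.7 and 80.2 in replicate 2. The strongest 25% of members held it in 53.9% (46.8 to 60.8) and the weakest 25% in 35.2% (28.8 to 42.2). Among the 25 strongest genes the share was 8 of 25 (17.2 to 51.6%). By copies, 243 members held 1, 118 held 2, 13 held 3 and 1 held 4.

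Seen from the genes, TGATAA lay in the 150 bp before the start of 375 of the 760 genes with a member (49.3%) and of 3112 of all 17242 autosomal protein-coding genes. GAGAGA lay there in 21.1% against 12.9%, and CACGTG in 6.18% against 3.59%. TATAAA did not stand apart over that stretch (23.2% against 25.6%), and TTTCAG was lower (24.7% against 31.3%). On the gene's strand, TATAAA was most frequent from 50 to 26 bp before the start, with 80.3 per 1000 genes with a member and 66.3 per 1000 of all autosomal genes.

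Core promoter sequence is known to differ between its strands, so each 6-mer was compared with its reverse complement on the gene's strand. Of 2016 pairs, 129 (6.4%) differed in a two-sided exact McNemar test at an adjusted p under 0.05. Pyrimidines stood on the gene's strand: AAGAGA was in 4.26% of windows on it and 15.4% on the other (adjusted p = 1.78e-09, exact McNemar test), and GAGAGA in 6.32% against 13.3% (adjusted p = 0.000586, exact McNemar test). CTCTCC was in 6.97% on the gene's strand and 1.81% on the other, and CATTTC in 10.2% against 3.87%. TATAAA was in 9.42% on the gene's strand and 4.52% on the other (adjusted p = 0.00467, exact McNemar test). Skews in the same direction were present over all autosomal genes. From 75 to 51 bp before the start, GAGAGA had 6.96 per 1000 of all genes on the gene's strand and 32.1 on the other. Genes with a member had 21.1 and 46.1. From 50 to 26 bp before the start, TATAAA had 66.3 and 28.3 per 1000 of all genes, and 80.3 and 21.1 per 1000 genes with a member. The skews of the 2 gene sets were not tested against each other. With windows of 25 bp the calls of GAGAGA (adjusted p = 0.295), CTCTCC (0.428), CATTTC (0.105) and TATAAA (0.866) were lost in the exact McNemar test. Among members above the median signal those of GAGAGA (adjusted p = 0.207) and TATAAA (0.154, exact McNemar test) were lost. That of CTCTCC was also lost with a limit of 100 bp (adjusted p = 0.102, exact McNemar test). TGATAA showed no difference that passed (27.1% against 29.9%, adjusted p = 0.615, exact McNemar test). AAGTCC was in 11 windows on the gene's strand and 0 of 775 on the other, which allows a share of up to 0.387% (adjusted p = 0.0249, exact McNemar test), and that call was lost on either replicate's list alone (0.0592 on that of replicate 2 and 0.125 on that of replicate 1). TTTTTT, which did not pass (adjusted p = 0.137, exact McNemar test), passed on either replicate's list (0.0228 on that of replicate 2 and 0.00131 on that of replicate 1), with more on the gene's strand.

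Gene groups were described by how many autosomal genes of a list had a member, beside 4.41% of all 17242 autosomal protein-coding genes (760). Promoters that 2 genes share, or that lie far from other genes, change how easily a gene can have such a peak, so the shares are descriptions with no test. Detoxification enzymes held the most genes: 45 of 174 cytochrome P450, UDP-glucuronosyltransferase (UGT) and glutathione S-transferase (GST) genes (25.9%, 19.9 to 32.8), with 47 and 44 in the replicates' own lists. By family, these were 18 of 67 P450, 16 of 63 UGT and 11 of 44 GST genes. The strongest was cyp-13A2 (signal value 451 pooled, 243 in replicate 1 and 207 in replicate 2), whose summit was 62 bp downstream. After it came ugt-26 (410, 217 and 200) and cyp-13A5 (405, 217 and 189). Of the 45, 36 had their summit upstream and 19 held TGATAA. Many of these genes lie in clusters of recent copies, so they are not independent.

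Nuclear hormone receptor genes, the family of NHR-80 itself, held 33 of 247 (13.4%, 9.67 to 18.2), with 35 and 33 in the replicates' own lists. Of the 33, 29 lay on chromosome V, which carries many recent duplicates of the family. How many of the 247 lie there is not given here, so the count of 29 shows no preference for that chromosome. After nhr-8, the strongest were nhr-232 (498 pooled, 272 and 224 in the replicates, 62 bp downstream) and nhr-178 (390, 214 and 177, 55 bp upstream). TGATAA was in 10 of the 33 (30.3%, 17.4 to 47.3), beside 48.4% of all members, with no test of the difference, and 20 had their summit upstream. C-type lectin and lysozyme genes, many of which act in defence against microbes, held 30 of 252 (11.9%, 8.47 to 16.5). Of these 30, 22 held TGATAA (73.3%, 55.6 to 85.8). The strongest were clec-50 (583 pooled, 304 and 280), clec-150 (529, 297 and 228) and clec-72 (476, 234 and 245).

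Among lists of lipid metabolism, lipase and lipid droplet genes held 4 of 15, including the lysosomal lipase genes lipl-5 (344 pooled, 184 and 164 in the replicates, summit 47 bp upstream) and lipl-2 (270, 143 and 128, 49 bp). Peroxisomal genes held 5 of 24, with the peroxisomal membrane transporter gene pmp-5 (369, 201 and 169) and the acyl-CoA oxidase gene acox-1.5 (334, 178 and 156) strongest. Sphingolipid genes held 3 of 16, and these were asah-1, an acid ceramidase (505, 277 and 225), ttm-5 (317, 163 and 154) and sptl-2, a serine palmitoyltransferase subunit (146, 57.0 and 88.5). All 3 held TGATAA, beside 48.4% of all members, with no test of the difference.

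Mitochondrial beta-oxidation held 4 of 29, with the enoyl-CoA hydratase gene ech-6 strongest at 265 pooled, followed by the acyl-CoA dehydrogenase gene acdh-11 (176, 95.9 and 80.3). None of the 4 held TGATAA at its strongest summit. Of 22 fatty acid synthesis, desaturation and elongation genes, 2 had a member: the desaturase gene fat-3 (314, 167 and 149, summit 82 bp upstream) and the elongase gene elo-1 (170 pooled, 36 bp). Neither fat-3 nor elo-1 held TGATAA, and in the same list 9 genes had a far-upstream peak. Acyl-CoA synthetases held 1 of 19, acs-1, with 6 far-upstream.

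Among 21 lipid-regulatory transcription factor genes, 5 had a member: nhr-8, sbp-1, hlh-30, nhr-114 and hlh-11. At sbp-1, the worm's SREBP, the value was 189 pooled, 111 in replicate 1 and 75.0 in replicate 2, 133 bp upstream with 2 copies of TGATAA. At hlh-30, the worm's TFEB, it was 156, 70.6 and 87.0. Of the 5, only sbp-1 held TGATAA at its strongest summit. The replicates differed at nhr-114, where the nearest summit had 92.6 in replicate 1 and 6.52 in replicate 2. The bHLH and bZIP list held 7 of 50, led by xbp-1, atfs-1 and zip-11 (267, 133 and 137). The kinase gene ire-1, which acts before xbp-1 in the unfolded protein response, had 236 pooled, 141 and 99.1, with its summit 128 bp upstream.

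Markers of the intestine, the worm's main site of fat storage and yolk synthesis, held 6 of 15 (40%, 19.8 to 64.3): cpr-4, the sodium-proton exchanger gene nhx-2 (364 pooled, 171 and 193), hlh-30, acdh-1, cpr-1 and the GATA factor gene elt-7 (95.8, 34.8 and 50.6, at the limit of 150 bp downstream and in neither replicate's own list a core promoter gene). Of the 6, only nhx-2 held TGATAA at its strongest summit. The intestine list holds hlh-30, which is active in other tissues too. The autosomal yolk gene vit-6 had 365, 184 and 182, and the other vitellogenin genes lie on chromosome X. Markers of hypodermis (0 of 16, up to 18.8%), body-wall muscle (0 of 16), neurons (0 of 21, up to 14.3%), germline (0 of 38, up to 7.89%) and pharynx (0 of 11, up to 27.3%) held none, where the limit is the share that 3 genes would give. The Wilson interval of each of these lists holds the 4.41% of all autosomal genes. Far-upstream peaks were present at 1 muscle, 2 neuron, 1 germline, 1 pharynx and 0 hypodermis markers, and at 7 intestine markers.

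Other lists held few genes, which was not always a low share. Cuticle collagens held 0 of 144 (up to 2.08%) and serpentine chemoreceptors 1 of 1275, srv-1, at 722 pooled, 376 and 347. Insulin-like peptides held 0 of 37, and insulin and TOR signalling 0 of 14. Cytosolic ribosomal protein genes held 1 of 80, rpl-24.2 (207, 121 and 84.3), while 17 of them had a far-upstream peak. Heat shock and chaperone genes held 0 of 55 with 5 far-upstream, vesicle traffic GTPases 0 of 28, and translocon genes 0 of 16. These 3 lists, and insulin and TOR signalling, each held 1 gene in 1 of the replicates' own lists. Oxidative phosphorylation held 3 of 60, the proteasome 3 of 33, F-box, MATH and BTB genes 12 of 378, and histones 2 of 68. The remaining lists held 1 or 2 genes each: mitochondrial ribosomal proteins 1 of 70, translation factors 1 of 42, aminoacyl-tRNA synthetases 1 of 32, vacuolar ATPase 1 of 19, spliceosome 1 of 38, autophagy 1 of 22, TCA and glyoxylate cycle 2 of 16, glycolysis 2 of 20, unfolded protein response 2 of 16 and GATA factors 1 of 8. Beside 4.41% of all autosomal genes, shares were higher in the proteasome (9.09%), glycolysis (10%), TCA cycle, unfolded protein response and GATA factors (12.5% each). Oxidative phosphorylation (5%), vacuolar ATPase (5.26%) and autophagy (4.55%) were near it. Intervals of insulin and TOR signalling (0 to 21.5%) and translocon genes (0 to 19.4%) hold it too, and no list was tested. In all, 173 of the 760 genes were in at least 1 of the 40 lists, and 587 were in none.

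**Figure D5:**
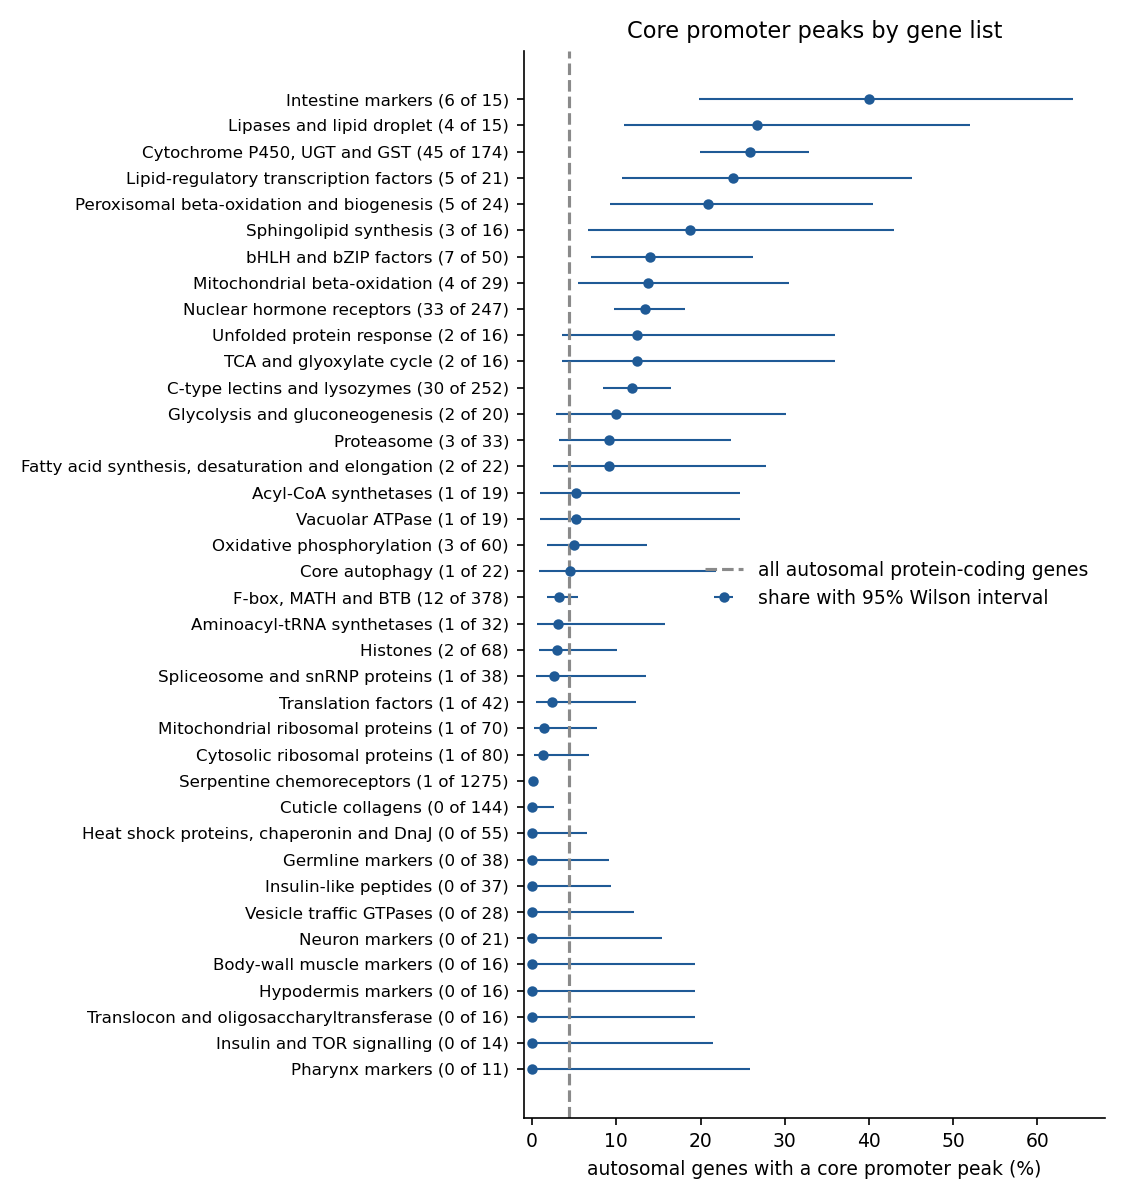
Share of autosomal genes with a core promoter peak (x axis, %) for each gene list of at least 10 genes (y axis, with counts); whiskers are 95% Wilson intervals, which cover counting error only. Intestine markers (40%), lipases (4 of 15) and detoxification enzymes (25.9%) lie above the dashed line of all autosomal genes at 4.41%, and markers of 5 other tissues are at 0, with intervals that hold 4.41%.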

How the data were processed

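Peak lists in the narrowPeak layout were deposited for each of 2 biological replicates and for both pooled, with a list thresholded by irreproducible discovery rate (IDR). Per notes deposited with the samples, peaks were called against a control. The names of the caller and aligner and the IDR limit were not given in the sources used here. Signal value is a score of the authors' peak caller, used only within a list. Lists carry no read counts, so depth is unknown and no interval comes from it. Intervals and limits cover counting error only.

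Coordinates are 1-based on ce11 (WBcel235) and the annotation is Ensembl release 115. The lists deposited on ce10 served only to set the size of 1 alternative. The 18 mitochondrial peaks were left out. Each member took the signal value and summit of the overlapping replicate peak with the nearest summit. For each replicate alone, its 7038 strongest peaks were used. 6-mers were compared by exact McNemar and Fisher's exact tests over the whole table, with Benjamini-Hochberg adjustment at 0.05. These tests were tested on simulated data, and overlaps were checked against bedtools 2.31.1 (695 members by both). The members, gene lists and 6-mers were chosen with earlier results of these data known.

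The text names the 25 genes with the strongest member that overlapped strong peaks of both replicates, up to 3 genes per list, members at the limit, 12 fixed 6-mers, and the 6 of smallest p per direction and test; other genes were named after their values were seen. Versions were Python 3.11.15, scipy 1.17.1, pandas 2.3.3, numpy 2.4.6 and matplotlib 3.10.9.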

Additional observations from a re-analysis of the deposited data

How the results depend on the processing

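The alternatives were each replicate's own list, limits of 100 and 200 bp, members above the median signal, 1 summit per interval, any transcript start, at least 50% overlap, sequence windows of 25 and 100 bp, overlapping windows, an upstream flank and, added after seeing the data, as many pooled peaks as the 9962 of the ce10 list. No tested call changed direction, but the ratio of core to far-upstream signal, which has no test, turned from above to below 1 in 3 alternatives (0.989, 0.986 and 0.956). No paired analysis was possible because there is 1 group. On the replicates' lists the values were 764 to 777 peaks, 750 to 757 genes, 75.0 to 75.7% upstream, a signal ratio of 0.989 to 1.02, 90.7 to 91.6% overlap, and 303 to 308, 5 to 15 and 123 to 147 6-mers at summits, against far-upstream peaks and by strand. Above the median signal, 383 peaks and 380 genes were left by construction, with 79.4% upstream, a ratio of 0.986, 99.7% overlap and 145, 1 and 14 6-mers. At 100 bp, 74.3% were upstream, with 206 6-mers at summits and 44 by strand. At 200 bp, 79.6% were upstream, with a ratio of 1.05 and 197 by strand. With 1 summit per interval 77.8% were upstream. With 50% overlap, 83.2% overlapped. Windows of 25 bp gave 135, 4 and 9 6-mers, and of 100 bp 405 by strand. With 9962 pooled peaks, 74.1% were upstream, with a ratio of 0.956, 69.7% overlap and 206 by strand; the cause was not tested. For single 6-mers, 630 values kept their side of the threshold, 60 fell below it and 13 passed it, and for gene lists 51 shares moved by less than the spread between replicates and 29 by more. Unknown depth and 2 replicates limit every value.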
